A study of Mus musculus with 10 samples.

Results

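The genes described here are 5 transcriptional targets of Notch signalling (Hes1, Hey1, Hey2, Heyl and Nrarp), the DNA-binding factor of the pathway (Rbpj) and the 3 Fringe enzymes that modify Notch receptors (Lfng, Mfng and Rfng). They were found by mapping the versioned Ensembl identifiers of the deposited tables to mouse symbols, and all 9 were present among the 55385 genes listed. RNA from hepatic endothelial cells of mice was sequenced in 5 libraries labelled Alk1-HEC-KO (genotype KO) and 5 Control libraries (genotype WT), to compare cells with and without a targeted Alk1 (Acvrl1) gene. From non-parenchymal liver cells, prepared on a Nycodenz gradient, the endothelial cells had been captured with magnetic beads against CD146, a surface protein of endothelium, and libraries were read on a BGISeq-500. Libraries held 23489494 to 23602771 estimated counts each. The labels used here give neither the promoter that drove the deletion nor the deleted exons, strain, age or any pooling of animals. They do not say whether the libraries of a group are separate animals, and a p-value here refers to library spread alone, part of which may be technical.

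Acvrl1, the targeted gene, was higher in the libraries labelled Alk1-HEC-KO, at 239, 246, 250, 258 and 245 CPM, against 124, 125, 136, 114 and 135 CPM in Control libraries 1 to 5 (CPM, counts scaled to a common library size with TMM factors; 1.95-fold, edgeR adjusted p = 1.7e-07). The targeted gene thus went against its label. Counts per gene do not show which exons were read, and whether labels were exchanged between the groups was not tested. An exchange would turn every direction given here, those of Lfng, Mfng and Jag2 included. These libraries are therefore called knockout-labelled, KO1 to KO5, and higher or lower always means these libraries relative to Control. Endothelial markers were abundant in all libraries: Pecam1 averaged 1724 ± 65.4 CPM in knockout-labelled libraries and 1464 ± 93.9 CPM in Control libraries (SD, n = 5 each). Cdh5 averaged 1914 ± 70.8 CPM in knockout-labelled libraries and 1717 ± 93.2 CPM in Control libraries. Of the 10 pan-endothelial markers read, 4 rose (Pecam1, Tie1, Emcn and Sox18), 3 fell, and the others, Cdh5 included, did not pass. The largest log2 fold change of these markers was that of Emcn, at 567 ± 42.3 CPM in knockout-labelled and 305 ± 25.5 CPM in Control libraries (edgeR adjusted p = 2.7e-06). Eng fell, at 3328 ± 240 CPM in knockout-labelled and 5611 ± 430 CPM in Control libraries (edgeR adjusted p = 1.4e-05). Kdr (2865 ± 144 and 3603 ± 307 CPM, in the same order) and Tek (839 ± 49.7 and 1064 ± 54.0 CPM) also fell.

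Notch receptors are cut after binding a Delta or Jagged ligand on a neighbouring cell, and the released intracellular domain joins RBPJ on DNA to switch on Hes, Hey and Nrarp genes. HES and HEY proteins are repressors, and NRARP limits the Notch complex that induces it. Fringe enzymes extend O-linked fucose on the receptors in the Golgi, which changes how strongly Delta and Jagged ligands activate them. In endothelium the pathway is known for its part in arterial identity and in restraining tip cells during sprouting.

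Promoter sequence from RefSeq (GRCm38.p6) was at hand for 5 of the 9 genes (Hey2, Nrarp, Lfng, Rfng and Rbpj). Of these, Lfng is shown because it passed the test with the largest difference, and Hey2 and Nrarp as targets of the pathway to set beside it. Each stretch holds 229 bases on the gene's own strand and ends 21 bases before the RefSeq start of the gene. Capitals mark TGGGAA, the core that RBPJ is known to bind, read on both strands (TTCCCA on the reverse), and CACGTG, an E-box of the kind that HES and HEY factors can bind.
Lfng, chr5:140607091-140607319, plus strand: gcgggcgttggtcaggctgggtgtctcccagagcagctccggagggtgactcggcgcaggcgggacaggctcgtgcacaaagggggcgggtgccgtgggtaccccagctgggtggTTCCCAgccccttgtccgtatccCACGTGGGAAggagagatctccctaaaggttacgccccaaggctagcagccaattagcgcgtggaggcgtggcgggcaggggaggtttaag
Hey2, chr10:30842805-30843033, minus strand: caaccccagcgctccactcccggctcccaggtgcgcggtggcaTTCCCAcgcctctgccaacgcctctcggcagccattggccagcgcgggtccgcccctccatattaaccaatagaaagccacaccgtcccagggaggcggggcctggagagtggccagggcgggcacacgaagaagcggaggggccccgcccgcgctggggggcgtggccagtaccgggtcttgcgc
Nrarp, chr2:25180508-25180736, plus strand: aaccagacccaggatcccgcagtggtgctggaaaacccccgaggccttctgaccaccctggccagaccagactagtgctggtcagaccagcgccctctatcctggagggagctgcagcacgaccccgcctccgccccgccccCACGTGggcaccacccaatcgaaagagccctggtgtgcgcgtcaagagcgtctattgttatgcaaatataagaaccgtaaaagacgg

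The Lfng stretch held TGGGAA on each strand, 135 bases before the start on the reverse strand and 108 bases before it on the forward strand, and the forward match overlapped an E-box that begins 112 bases before the start. Of 32851 windows of the same length in the RefSeq table, 20.0% held TGGGAA on either strand, 1.07% held it on both strands, and 0.0731% held the overlapping string CACGTGGGAA or its reverse complement. Of the 2 Rbpj windows, which are not printed, 1 also held TGGGAA on both strands. The Hey2 stretch held TGGGAA once, on the reverse strand, and Nrarp held an E-box (5.29% of windows) and no TGGGAA. CACGTGGGAA is the string of the Lfng stretch itself, so its low share is no test of that stretch. These matches describe the letters in these windows, and binding was not measured.

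Lfng fell and Mfng rose, and no other gene of the set passed the test. Hey2 was too low to be tested, so 8 of the 9 genes entered the fit, of which 1 was higher, 1 was lower and 6 did not pass an adjusted p of 0.05. Over all 15043 genes tested 10.6% were called higher and 9.08% lower, so 19.7% were called in either direction, against 2 of 8 genes (25.0%) here, a share near the background. The split of all calls, 1593 higher and 1366 lower, was 1968 and 1024 when libraries were scaled by library size alone. It was 1546 and 569 with limma on log2(TPM + 1), which covered a different set, the genes with a mean TPM of at least 1. Without Control 4 and Control 5, which an earlier reading of these data doubted, it was 1074 and 866. The median log2 fold change was 0.17 over the 8 genes, against a median of 7.8e-05 over all genes tested. Over all genes of the fit, the median was 0.05 with library size alone and 0.08 with limma on log2(TPM + 1).

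**Figure D1:**
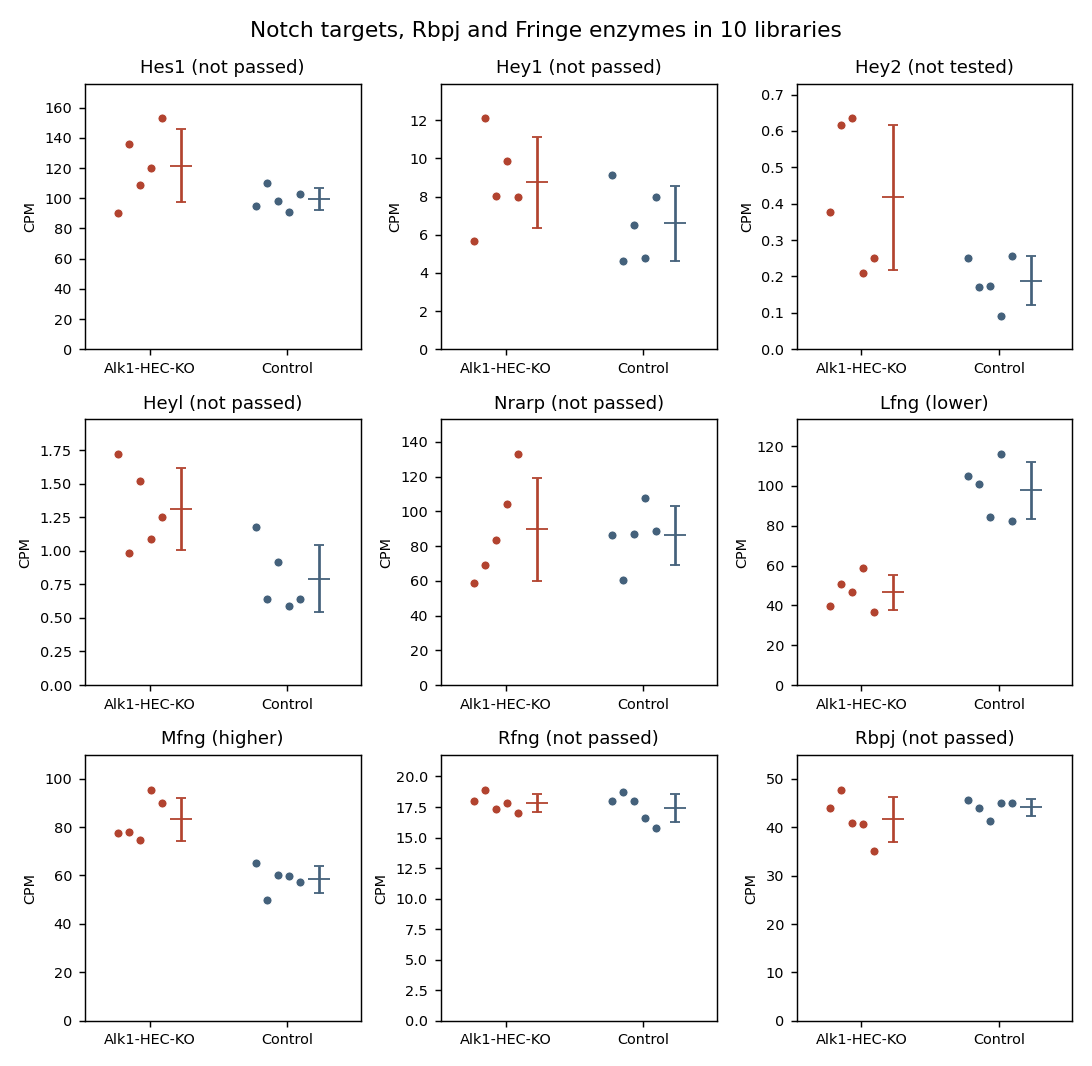
Expression in CPM (vertical axes, linear from 0) of each gene in the 5 knockout-labelled libraries (left in each panel) and the 5 Control libraries (right); points are libraries in the order of their numbers, and bars show mean ± SD. Lfng and Mfng are the only panels of tested genes in which the groups do not overlap.

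Lfng (lunatic fringe, ENSMUSG00000029570.5) lies on chromosome 5 from 140607320 to 140615545 (GRCm38, plus strand), next to the promoter stretch printed above. It stood at 39.5, 50.8, 46.6, 59.0 and 36.9 CPM in KO1 to KO5, against 105, 101, 84.2, 116 and 82.6 CPM in Control 1 to 5. The highest knockout-labelled library lay below the lowest Control library. The means were 46.5 ± 8.87 and 97.6 ± 14.1 CPM for knockout-labelled and Control libraries (SD, n = 5 each), a log2 fold change of -1.07 ± 0.14 (SE; edgeR adjusted p = 3.3e-04), or 2.10-fold lower in the knockout-labelled libraries. It was called lower under all 21 alternatives, with log2 fold changes from -1.17 to -0.99.

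Mfng (manic fringe, ENSMUSG00000018169.12) lies on chromosome 15 from 78755882 to 78773475 (minus strand). Its level was 77.7, 78.1, 74.6, 95.3 and 90.0 CPM in KO1 to KO5, against 65.0, 49.9, 60.1, 59.8 and 57.3 CPM in Control 1 to 5. The groups did not overlap, with KO4 and KO5 highest and Control 2 lowest. The means were 83.2 ± 8.99 CPM in knockout-labelled libraries and 58.4 ± 5.51 CPM in Control libraries (SD, n = 5 each), a 1.42-fold rise (log2 fold change 0.51 ± 0.08 SE, edgeR adjusted p = 9.0e-04). It was called higher under all 21 alternatives, with log2 fold changes from 0.46 to 0.60. Lfng and Mfng were the 2 of the 8 tested genes whose CPM did not overlap between the groups, which 15.5% of all tested genes also showed.

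Rfng (radical fringe, ENSMUSG00000025158.7, chromosome 11 from 120780746 to 120784207, minus strand) did not pass. It stood at 18.0, 18.9, 17.3, 17.8 and 17.0 CPM in KO1 to KO5, against 18.0, 18.7, 18.0, 16.6 and 15.8 CPM in Control 1 to 5. The groups overlapped almost fully, with a log2 fold change of 0.03 and a 95% interval of -0.11 to 0.17 (edgeR adjusted p = 0.76).

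**Figure D2:**
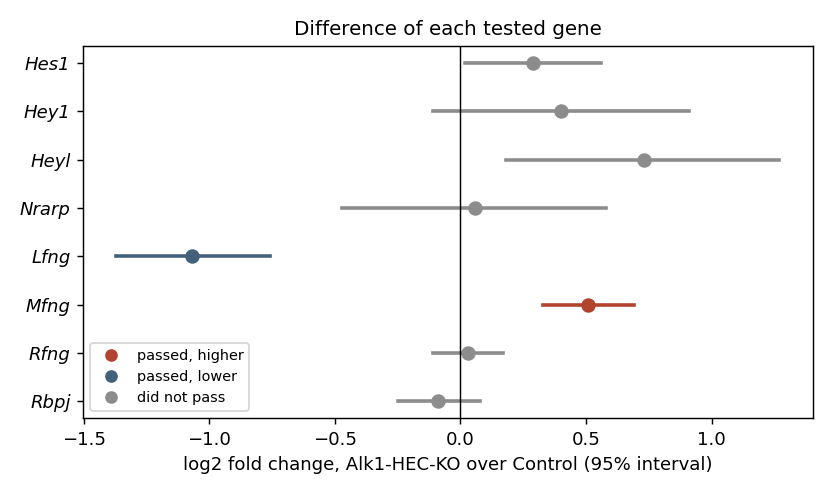
Log2 fold change of knockout-labelled over Control libraries (horizontal axis) with its 95% interval for the 8 tested genes (vertical axis); colour marks the call at an adjusted p of 0.05. Lfng lies at -1.07 and Mfng at 0.51, and the intervals of Hey1, Nrarp, Rfng and Rbpj span 0.

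Because TPM (transcript abundance as the authors deposited it) is set per transcript length, the 3 enzymes can be compared with each other on that scale. Lfng made up 29.3, 33.7, 33.1, 33.0 and 21.4% of the summed Fringe TPM in KO1 to KO5, against 55.9, 58.8, 49.8, 60.0 and 51.4% in Control 1 to 5. Mfng was the most abundant of the 3 in each knockout-labelled library, at 55.4 to 68.1% of the sum, and took 31.6 to 40.4% in Control libraries, where Lfng was the most abundant in each.

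The summed Fringe level overlapped between the groups, at 144 ± 13.2 TPM in knockout-labelled libraries and 157 ± 19.5 TPM in Control libraries (SD, n = 5 each). The ratio of Mfng to Lfng in TPM was 2.02, 1.65, 1.70, 1.76 and 3.19 in KO1 to KO5, against 0.644, 0.537, 0.812, 0.543 and 0.774 in Control 1 to 5. It was above 1 in each knockout-labelled library and below 1 in each Control library. In CPM the same ratio was 1.97, 1.54, 1.60, 1.62 and 2.44 in KO1 to KO5, against 0.621, 0.496, 0.714, 0.517 and 0.694 in Control 1 to 5. KO5 was highest on both scales. Relative to the median gene of each library, the TPM per CPM of Lfng was 1.07 in KO5 and 1.23 to 1.36 in the other libraries, and its part in the ratio in TPM was not tested. As shares and ratios of the genes chosen, these are descriptions with no test.

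**Figure D3:**
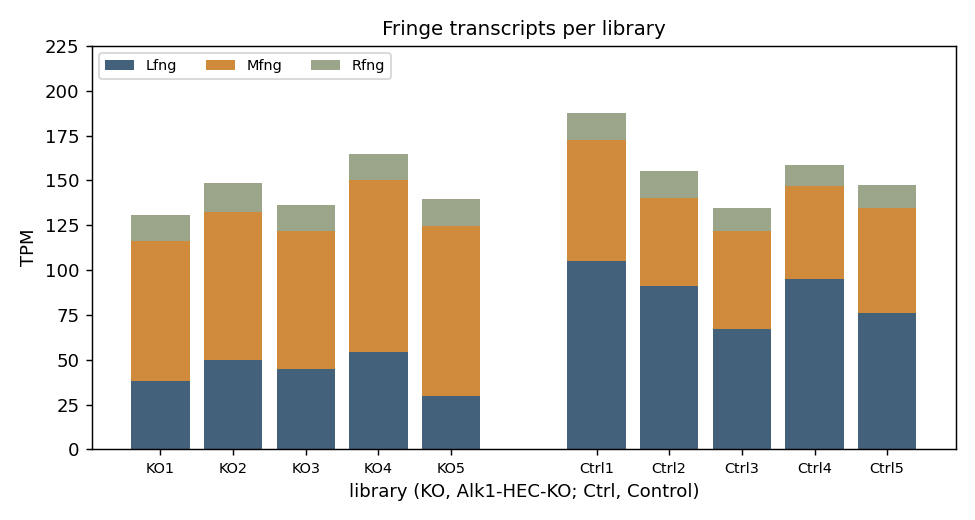
TPM of Lfng, Mfng and Rfng stacked per library (vertical axis, linear from 0), with the knockout-labelled libraries KO1 to KO5 on the left and Control libraries Ctrl1 to Ctrl5 on the right. The Lfng part is 29.8 to 54.4 TPM on the left and 67.1 to 105 TPM on the right, while total heights overlap.

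Among the targets, Hes1 had the highest level in TPM in both groups, and none of the targets passed the test. HES1 is a basic helix-loop-helix repressor. Hes1 (ENSMUSG00000022528.8, chromosome 16 from 30064384 to 30067796, plus strand) stood at 90.5, 136, 109, 120 and 153 CPM in KO1 to KO5, against 95.1, 110, 98.3, 90.6 and 103 CPM in Control 1 to 5. The groups overlapped, since KO1 was as low as Control 4 and KO3 lay within the Control range. The means were 122 ± 24.1 and 99.4 ± 7.40 CPM in knockout-labelled and Control libraries (SD, n = 5 each), with a log2 fold change of 0.29 (95% interval 0.02 to 0.56, edgeR adjusted p = 0.12). Without KO1 it was called higher (log2 fold change 0.38, edgeR adjusted p = 0.016), and it was not called under the other 20 alternatives.

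Nrarp, which encodes a small ankyrin-repeat inhibitor of the Notch complex (ENSMUSG00000078202.3, chromosome 2 from 25180758 to 25183339, plus strand), did not pass. It stood at 58.5, 69.1, 83.7, 104 and 133 CPM in KO1 to KO5, against 86.6, 60.4, 87.0, 108 and 88.9 CPM in Control 1 to 5. Knockout-labelled libraries held both the lowest and the highest value, in KO1 and KO5, which were also the lowest and highest knockout-labelled libraries for Hes1. The log2 fold change was 0.06 with a 95% interval of -0.47 to 0.58 (edgeR adjusted p = 0.9). Its sign turned without KO5 (-0.14), KO4 (-0.0034) or Control 2 (-0.05).

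The Hey genes, bHLH repressors related to Hes1, were low. Hey1 (ENSMUSG00000040289.8, chromosome 3 from 8663359 to 8667256, minus strand), known as an arterial Notch target, stood at 5.67, 12.1, 8.04, 9.88 and 7.99 CPM in KO1 to KO5, against 9.12, 4.63, 6.50, 4.77 and 7.98 CPM in Control 1 to 5. The groups overlapped, with a log2 fold change of 0.40 (95% interval -0.11 to 0.91, edgeR adjusted p = 0.26).

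Heyl (ENSMUSG00000032744.4, chromosome 4 from 123233556 to 123249875, plus strand), a Notch target also known from vascular smooth muscle, stood at 1.72, 0.986, 1.52, 1.09 and 1.25 CPM in KO1 to KO5, against 1.18, 0.644, 0.916, 0.585 and 0.640 CPM in Control 1 to 5. Only Control 1 reached into the knockout-labelled range. The log2 fold change was 0.73 ± 0.25 (SE; edgeR adjusted p = 0.062), on 13 to 41 counts per library. It was called without Control 1 (0.91, edgeR adjusted p = 0.025) and with the replicate number as a block (0.74, edgeR adjusted p = 0.036), and it did not enter the TPM alternatives because its mean TPM was under 1.

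Hey2 (ENSMUSG00000019789.9, chromosome 10 from 30832359 to 30842801, minus strand), an arterial and cardiac factor, had 9, 15, 15, 5 and 6 counts in KO1 to KO5, against 6, 4, 4, 2 and 6 counts in Control 1 to 5. The 3 highest libraries were knockout-labelled and the other 2 overlapped the Control range. It fell below the filter on low counts. In a fit with no filter its log2 fold change was 1.11 ± 0.45 (SE; edgeR adjusted p = 0.15).

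Rbpj (ENSMUSG00000039191.12, chromosome 5 from 53466152 to 53657362, plus strand), through which the pathway acts on all of these targets, stood at 43.9, 47.7, 40.9, 40.6 and 35.0 CPM in KO1 to KO5, against 45.6, 44.0, 41.2, 44.9 and 45.0 CPM in Control 1 to 5. The groups overlapped, and KO5 was lowest. The log2 fold change was -0.09 with a 95% interval of -0.25 to 0.08 (edgeR adjusted p = 0.47), and it was close to 0 and positive with limma on log2(TPM + 1) and log2(TPM + 0.1), at 1.3e-04 and 6.0e-06. The processed pseudogenes Rbpj-ps1 and Rbpj-ps3 were listed with 0 counts in every library, so no reads were assigned to these copies.

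By level in TPM the order in knockout-labelled libraries was Hes1 (170 ± 35.8), Mfng (85.5 ± 9.29), Nrarp (61.4 ± 21.2), Lfng (43.5 ± 9.69), Rfng (14.9 ± 0.773), Rbpj (13.3 ± 1.48), Hey1 (6.44 ± 1.75), Heyl (0.509 ± 0.136) and Hey2 (0.290 ± 0.139; SD, n = 5 for each). In Control libraries it was Hes1 (133 ± 16.2), Lfng (86.8 ± 15.2), Mfng (56.3 ± 7.23), Nrarp (54.9 ± 9.46), Rfng (13.6 ± 1.42), Rbpj (13.3 ± 1.17), Hey1 (4.62 ± 1.65), Heyl (0.282 ± 0.102) and Hey2 (0.125 ± 0.0513). Ranges of neighbours overlapped between Mfng and Nrarp and between Rfng and Rbpj in both groups. They also overlapped between Nrarp and Lfng and between Heyl and Hey2 in knockout-labelled libraries, and between Lfng and Mfng in Control libraries. Hes1 alone made up 95.1 to 97.0% of the summed Hes1 and Hey TPM in knockout-labelled libraries and 94.9 to 97.7% in Control libraries.

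The other genes of the pathway were read from a list of 68 genes in 10 roles, of which 58 were tested. Of these 15 rose, 3 fell and 40 did not pass, so 31.0% were called against 19.7% of all genes tested. Under the 21 alternatives 10 to 17 were called higher and 0 to 4 lower. The list was chosen with earlier results of these data known, so its share is a description with no test. Their median log2 fold change was 0.10, against 7.8e-05 over all genes tested.

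Ligands and receptors rose in part. The ligand Jag2 stood at 40.6 to 53.1 CPM in knockout-labelled libraries, against 0.945 to 3.59 CPM in Control libraries, a log2 fold change of 4.60 ± 0.28 (SE; edgeR adjusted p = 2.8e-06). It was the largest difference of the list. Notch4, an endothelial receptor, averaged 297 ± 29.7 and 202 ± 17.2 CPM in knockout-labelled and Control libraries (SD, n = 5 each; edgeR adjusted p = 3.1e-04), and Dll4, an endothelial Delta ligand, averaged 383 ± 64.9 CPM in knockout-labelled and 272 ± 34.5 CPM in Control libraries (edgeR adjusted p = 0.013, and 0.051 with no filter on low counts; the gene overlaps Gm14207 on the other strand). Notch1 averaged 324 ± 33.8 CPM in knockout-labelled libraries and 316 ± 40.6 CPM in Control libraries (edgeR adjusted p = 0.82).

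Among genes for receptor glycosylation, Eogt rose, at 93.9 ± 5.09 CPM in knockout-labelled libraries and 42.3 ± 8.39 CPM in Control libraries (SD, n = 5 each; edgeR adjusted p = 2.5e-05). EOGT adds O-linked N-acetylglucosamine to EGF repeats of Notch receptors. Pofut1, which adds the fucose that Fringe enzymes extend, averaged 54.3 ± 4.48 and 59.2 ± 4.45 CPM in knockout-labelled and Control libraries (edgeR adjusted p = 0.23). Adam10, the protease that sheds the receptor's outer part, rose by 0.46 ± 0.05 on the log2 scale (SE; edgeR adjusted p = 6.1e-05) and Furin, which cuts the receptor precursor, by 0.19 ± 0.05 (edgeR adjusted p = 0.025). None of the other 8 cleavage genes passed, nor any of the 6 nuclear coactivators. Of the 4 ligand endocytosis genes Neurl1b rose by 0.71 ± 0.19 (edgeR adjusted p = 0.022).

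Of 10 corepressors 3 rose, Tle3 and Spen among them, and Hdac1 fell. Tle3, a Groucho-type partner of HES and HEY repressors, averaged 80.2 ± 8.73 CPM in knockout-labelled libraries and 51.7 ± 7.33 CPM in Control libraries (SD, n = 5 each; edgeR adjusted p = 8.1e-04). Spen, a partner of RBPJ in repression, rose by 0.31 ± 0.08 on the log2 scale (SE; edgeR adjusted p = 0.012, and 0.23 with limma on log2(TPM + 1)). Its gene overlaps Zbtb17 on the other strand, and counting by strand is not stated. Of 9 turnover genes Fbxw7, which marks the intracellular domain for degradation, rose by 0.37 ± 0.06 (edgeR adjusted p = 6.6e-04), Dtx3l rose and Numbl fell.

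Of 13 other targets 7 were tested, and Myc, Efnb2 and Cdkn1a rose. Myc averaged 19.2 ± 4.40 CPM in knockout-labelled libraries and 7.74 ± 1.36 CPM in Control libraries (SD, n = 5 each; edgeR adjusted p = 2.2e-04), and Efnb2, the arterial ephrin ligand, averaged 194 ± 17.8 CPM in knockout-labelled and 116 ± 21.7 CPM in Control libraries (edgeR adjusted p = 0.0012). Gata2 fell by 0.46 ± 0.08 on the log2 scale (SE; edgeR adjusted p = 0.0015, and 0.075 with limma on log2(TPM + 1)). These genes respond to many pathways besides Notch. Hes5 and Hes7, other Hes targets, averaged under 0.3 CPM in both groups and were not tested.

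Several of these calls were lost under some alternatives. Furin and Dtx3l were each lost under 9 of 21, Numbl and Hdac1 under 14 of 21 and Neurl1b under 4 of 19. Furin was lost with the replicate block (edgeR adjusted p = 0.061), with no filter on low counts (0.065), with limma on log2(TPM + 1) (0.096) and log2(TPM + 0.1) (0.092), and without Control 4 and Control 5 together (0.17). With single libraries left out, Furin was not called without KO1, KO5, Control 4 or Control 5 (edgeR adjusted p from 0.057 to 0.066). Dtx3l was not called without KO1, KO2, KO3, Control 2, Control 3 or Control 4 (0.055 to 0.082), and its gene overlaps Parp9 on the other strand. Numbl was not called without KO1 to KO4 or Control 1 to 4, each left out alone (0.063 to 0.094). Hdac1 was not called without KO1, KO2, KO4, KO5 or Control 2 to 5 (0.063 to 0.098), and Neurl1b not without KO5, Control 2 or Control 4 (0.051 to 0.061). The count of 3 that fell was 1, Gata2, without KO2, KO4, Control 2, Control 3 or Control 4.

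**Figure D4:**
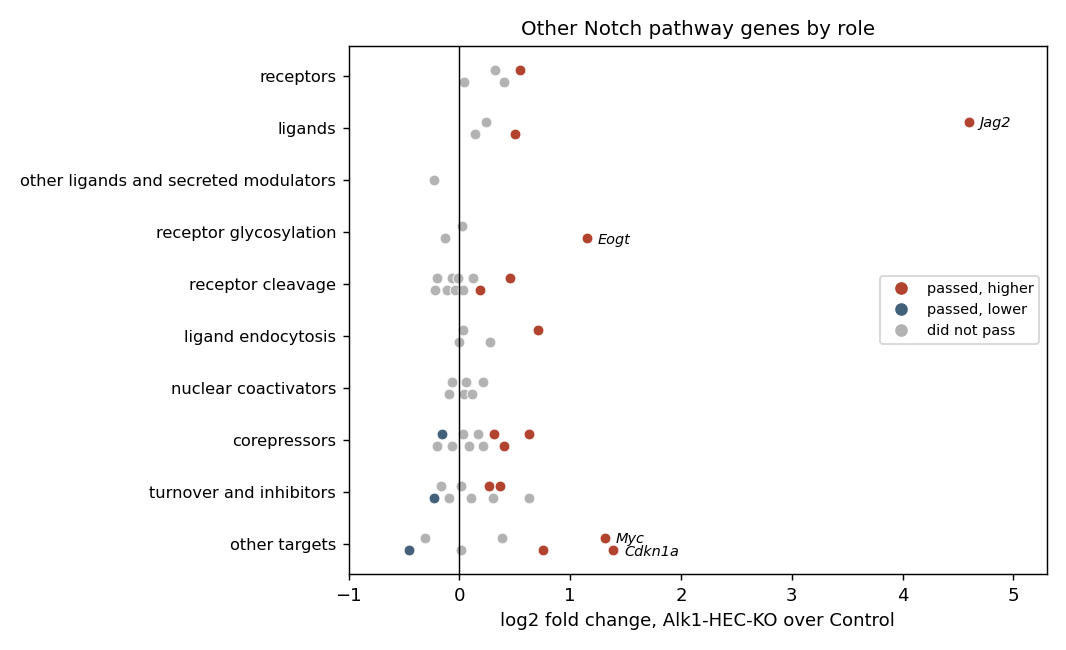
Log2 fold change of knockout-labelled over Control libraries (horizontal axis) for the 58 tested genes of the wider Notch pathway, 1 point per gene, by role (vertical axis); colour marks the call at an adjusted p of 0.05. Jag2 at 4.60 lies apart from all others, and 40 of the points did not pass.

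The libraries are bulk samples, so fewer cells of a type and less RNA per cell cannot be told apart. Markers of several cell types moved with the groups. Of 8 sinusoidal endothelium markers 7 fell, and their summed level was 11531 to 12646 TPM in knockout-labelled libraries, against 16239 to 17110 TPM in Control libraries. Of 8 arterial markers 4 rose (Gja5, Efnb2, Dll4 and Sema3g) and 1 fell (Bmx). The list includes Hey1 of the set described, and Efnb2 and Dll4 are also in the wider Notch list. The sums overlapped at 543 to 628 TPM in knockout-labelled libraries and 473 to 942 TPM in Control libraries. The upper Control value was Control 2 alone, and the other Control libraries reached 557 TPM. Gja4, a gap junction gene of the list, stood at 176 to 282 TPM in knockout-labelled libraries and 240 to 728 TPM in Control libraries. The part of these endothelial shifts in the values of Lfng and Mfng was not tested.

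Hepatocyte markers, 3 of 8 of which fell, summed to 614 to 1291 TPM in knockout-labelled libraries and 670 to 2617 TPM in Control libraries. Control 1, Control 3 and Control 5 lay within the knockout-labelled range, and Control 2 and Control 4 lay above it. The part of hepatocyte RNA in the values of Lfng was not tested. Mural markers, 3 of 10 of which rose, summed to 131 to 165 TPM in knockout-labelled libraries and 43.5 to 101 TPM in Control libraries. Most of the difference between these sums lay in Kcnj8 and Abcc9. Kcnj8 averaged 50.3 ± 10.9 TPM in knockout-labelled and 12.3 ± 4.63 TPM in Control libraries, and Abcc9 averaged 35.0 ± 2.98 and 10.7 ± 5.36 TPM, in the same order. The risers were Rgs5, Kcnj8 and Abcc9, while the smooth muscle genes Acta2 (24.7 ± 4.51 and 24.4 ± 8.17 CPM in knockout-labelled and Control libraries) and Myh11 (8.42 ± 1.95 and 9.97 ± 5.00 CPM; SD, n = 5 each) did not pass. Their part in the Heyl values was not tested.

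B cells and plasmacytoid dendritic cells are known to express Mfng. Of 7 B cell markers Ighm rose and the other 6 did not pass. The sums were 68.0 to 127 TPM in knockout-labelled libraries and 30.1 to 59.3 TPM in Control libraries. Ighm alone averaged 68.7 ± 17.0 TPM in knockout-labelled and 29.5 ± 7.05 TPM in Control libraries (SD, n = 5 each). None of the 4 plasmacytoid markers passed. Their sums were 1169 to 1251 TPM in knockout-labelled libraries and 958 to 1137 TPM in Control libraries. Nearly all of each sum was Bst2, an interferon-induced gene that many cell types express, at 1184 ± 34.4 TPM in knockout-labelled and 1057 ± 65.8 TPM in Control libraries (SD, n = 5 each). Siglech, more specific to these cells, averaged 1.86 ± 0.614 CPM in knockout-labelled and 1.11 ± 0.219 CPM in Control libraries (SD, n = 5 each). Of 7 bile duct markers, a cell type in which Notch targets are active, 6 were tested and 4 rose, with sums of 454 to 797 TPM in knockout-labelled libraries and 212 to 331 TPM in Control libraries. Most of each bile duct sum was Spp1, at 575 ± 122 TPM in knockout-labelled and 247 ± 43.6 TPM in Control libraries. The other risers were Krt19, Epcam and Sox9, at far lower levels. The part of B cells, plasmacytoid dendritic cells and bile duct cells in the values of Mfng and Hes1 was not tested. Of the remaining lists, 2 of 8 stellate cell markers rose, 1 of 7 T and NK cell markers fell, none of 7 Kupffer cell markers passed, and of 10 pan-endothelial markers 4 rose and 3 fell.

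The genes whose log2 CPM most resembled that of Lfng over the 10 libraries, among 10163 genes searched, were Plvap (Pearson r = 0.99, overlapping Gtpbp3 on the other strand), which encodes the protein of endothelial diaphragms, Chmp6 (0.97), an ESCRT component, and Mup9 (0.97), a major urinary protein gene of hepatocytes whose reads are shared among near-identical copies. For Mfng they were Mark3 (0.98), a kinase, Lama4 (0.97), a laminin chain of vessel basement membrane, and Pde8a (0.97), a phosphodiesterase. Each r spans both groups and so includes the difference between them. Over deviations from the group means they were 0.91, 0.84 and 0.86 for Plvap, Chmp6 and Mup9, and 0.95, 0.86 and 0.86 for Mark3, Lama4 and Pde8a. The genes were picked by r over these same libraries, which favours high values here too, so these are no test. Plvap averaged 619 ± 42.3 CPM in knockout-labelled libraries and 787 ± 30.1 CPM in Control libraries (SD, n = 5 each). Lama4 averaged 410 ± 29.5 CPM in knockout-labelled and 291 ± 27.6 CPM in Control libraries. Mup9 averaged 0.797 ± 0.699 CPM in knockout-labelled and 49.5 ± 44.6 CPM in Control libraries. Chmp6 did not pass (edgeR adjusted p = 0.13).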

How the data were processed

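RNA of hepatic endothelial cells was measured in 5 Alk1-HEC-KO and 5 Control libraries, grouped by the sample titles. Per the submitters' processing notes, Trim Galore 0.6.4 and kallisto 0.4.6 were used with GRCm38.p6. The authors deposited an expected count (an estimate that need not be whole) and a TPM value per gene and library. Their annotation and summing to genes are not stated. Of 55385 identifiers 55144 matched a GENCODE M21 symbol, 54487 also by version. Where identifiers shared a symbol, the one with most counts kept it.

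Counts were rounded to whole numbers, filtered with filterByExpr (minimum count 10), scaled by TMM (factors 0.943 to 1.035) and tested by genotype alone with edgeR 4.0.16 in R 4.3.3 (robust quasi-likelihood test, Benjamini-Hochberg adjustment over 15043 genes, threshold 0.05). At these depths counting error is small except for genes with few counts, such as Hey2. Pairs of libraries within a group were compared to look for copies of the same library. Every pair differed by more than sampling noise (chi-square per degree of freedom 10.38 to 29.62), so none was dropped as a copy and all 10 were kept. This check does not detect a poor or mislabelled library. The fit was tested on simulated counts.

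The genes described and the lists were chosen with earlier results of these data known. Named are the 9 genes, Acvrl1, called members of the Notch list (values for those of smallest p; 1 is not reported here) and, for each called member of the 9, the 3 genes with the highest Pearson r (mean of at least 5 CPM, no predicted genes or pseudogenes). Notch1, Pofut1, Dll4, Furin, Neurl1b, Spen, Gata2, Hes5 and Hes7 were given values, and marker genes named, after their values were seen. Alternatives were DESeq2 1.42.0, limma-voom and limma on log2 TPM (limma 3.58.1, genes with a mean TPM of at least 1), other scalings and filters, a fit without robust estimation, a replicate block, and libraries left out.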

Additional observations from a re-analysis of the deposited data

Results flagged for a closer look

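No library stood far from its group for any of the 9 genes. The check also covered Acvrl1, the called genes of the Notch list and the genes with the highest Pearson r. Of 68 groups of 5 libraries, the 9 genes included, 4 held such a library, and about 1 in 20 would by chance. Myc in Control 4 was 5.40 CPM, against 7.82 to 8.72 CPM in the other Control libraries. In Control 2, Fbxw7 was 15.9 CPM (17.6 to 18.0 CPM in the other Control libraries), Dll4 was 212 CPM (279 to 300 CPM in the others) and Lama4 was 242 CPM (300 to 308 CPM in the others).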

How the results depend on the processing

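Lfng and Mfng kept their direction and call under all 21 alternatives. The count of the 9 genes called higher was 1, and 2 with the replicate block; it ranged from 1 to 2 with each library left out, and the count called lower was 1 throughout. Over all genes, 1366 were called lower, and 569 with limma on log2(TPM + 1), 579 on log2(TPM + 0.1) and 866 without Controls 4 and 5. Both TPM fits covered a different set, the genes with a mean TPM of at least 1. Of the wider Notch list 3 were called lower, and 1 with library size alone, 0 with either TPM fit, 1 with the replicate block, 1 without Controls 4 and 5, and 1 to 4 with each library left out. The sign turned for Rbpj (1.3e-04 and 6.0e-06 with log2(TPM + 1) and log2(TPM + 0.1)), for Nrarp (-0.14 to 0.17 with each library left out, below 0 without KO4, KO5 or Control 2) and for Rfng (-0.04 without Controls 4 and 5), none of which passed in any fit. The cause was not tested. Mark3 was not called with no filter, without KO5 or without Controls 4 and 5. Mup9 was not called with limma-voom (adjusted p = 0.076). The labels share replicate numbers between groups, but same-numbered libraries did not all deviate together (r from -0.2 to 0.35), so the numbers were not taken as pairs; over all genes the replicate block gave 1432 higher and 1135 lower. Depth limits Hey2 and Heyl.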
